A study of Rattus norvegicus with 28 samples.

Results

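The 40 measured genes of the cytosolic ribosomal proteins were followed across breast feeding, formula with hypoxia, and unfed birth in the rat ileum. They were chosen by name, as probe sets of the array with 1 gene symbol of the form Rpl or Rps plus a number, or equal to Rplp0, Rplp1, Rplp2 or Rpsa. Where a gene had several such probe sets, the one of the highest mean stood for it. This gave 40 genes with 59 probe sets, out of 4736 genes with 7006 such probe sets on the array. Rplp1 and Rplp2 were not among them. By name, 25 of the 40 belong to the large subunit, 11 to the small subunit and 1 (Rplp0) to the stalk of the large subunit, and 3 (Rpl3l, Rpl19l4 and Rps27l) are named as paralogs or copies of another ribosomal protein gene.

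Ribosomal proteins assemble with ribosomal RNA in the nucleolus into a small subunit, which decodes the messenger RNA, and a large subunit, which joins amino acids. Their messenger RNAs are among the most abundant of a growing cell, and many begin with a C followed by a tract of pyrimidines, the 5′ terminal oligopyrimidine (TOP) element. Through this element, mTOR signalling switches their translation on and off with nutrient supply, often with little change in the amount of messenger RNA. The intestinal crypts of the newborn divide fast and need ribosomes for it.

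The measurements were array signals of terminal ileum, 1 array per pup, from 28 rat pups in 9 groups. Pups were breast-fed and killed on day 1, 2, 3 or 4 of life (3 arrays a day), or received formula together with hypoxia 3 times per day and were killed on the same days (3 arrays a day). The remaining 4 arrays came from unfed newborns, given here as day 0. The arrays fall in 2 series of accession numbers (19 and 9 arrays), and the labels do not say whether these were separate experiments. All arrays of breast-fed day 4 are in the second series. Formula and hypoxia always went together and cannot be told apart, and strain and sex were not given in the labels used here. The arrays hold whole tissue, so fewer cells of a type and less RNA per cell cannot be told apart.

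The starts of the genes that the results turn on are shown first, because the TOP element is the sequence by which this family is known. The 40 genes lie on 16 chromosomes, and 36 of them matched a promoter in RefSeq (build GRCr8). Each line gives 40 bases of the sense strand, 20 before and 20 from the annotated start. Capitals mark a TOP-like run, a C followed by at least 5 further C or T, which begins within 10 bases of the start.
Rps15, chr7:10068096-10068135, minus strand: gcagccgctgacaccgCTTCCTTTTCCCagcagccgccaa
Rps23, chr2:23814497-23814536, plus strand: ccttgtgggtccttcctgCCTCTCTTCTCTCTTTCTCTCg
Rplp0, chr12:46718371-46718410, minus strand: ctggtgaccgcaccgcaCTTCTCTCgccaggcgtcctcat
Rpl31, chr9:49143091-49143130, plus strand: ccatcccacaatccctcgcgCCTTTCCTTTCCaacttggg
Rps10, chr20:5700725-5700764, minus strand: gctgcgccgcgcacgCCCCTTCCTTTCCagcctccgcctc
Rpl6, chr12:41011671-41011710, minus strand: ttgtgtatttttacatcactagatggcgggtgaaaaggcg
Rps6, chr5:106420521-106420560, minus strand: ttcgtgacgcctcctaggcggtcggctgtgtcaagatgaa

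The first 5 of these hold a run, and Rpl31 has it exactly at the start annotated for its promoter. Rpl6 and Rps6 hold no run that begins within 10 bases of the start, and in Rps6 one begins just outside that limit. The Rpl6 window lies inside the annotated gene, whose span on the minus strand begins at base 41012756. The 5′ end of that span was thus not searched, and Rpl6 may hold a run there. Windows of some other genes lie inside their span as well, among them those of Rps15, Rpl31, Rps10 and Rpl19, which do hold a run. Their runs thus lie within the annotated gene and not at the 5′ end of its span. A run was found at the start of 19 of the 36 ribosomal protein genes (52.8%), against 3145 of 19005 windows of protein-coding genes (16.5%). On the opposite strand the same search found it in 4 of 36 (11.1%) and in 19.2% of all windows. In the window from 250 bases before to 50 bases after the start, CTTTCC on either strand occurred in 17 of 36 (47.2%, all windows 26.3%) and CTTCCT in 21 of 36 (58.3%, all windows 33.4%), and both can lie inside a TOP-like run. These matches describe letters near an annotated start, which is not always the start used in the ileum.

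Ribosomal protein probe sets were among the brightest of the array. All 40 genes passed the filter on low values (a mean signal above 24.0), as did 3185 genes in all, and 30 of the 40 were within the 100 highest signals of these genes and 25 within the 50 highest. The highest mean signals were 10340 for Rps29, 8051 for Rpl23 and 7911 for Rps16, all after normalisation on a linear scale. The lowest were 92.0 for Rpl3l, the paralog of Rpl3 known from skeletal muscle and heart, 100.4 for Rpl5 and 131 for Rpl30. Signals of different probe sets are set by their probes as well as by the transcript, so this order does not rank the transcripts. The other 3 genes with a mean signal under 500 were Rpl19l4, Rpl17 and Rps24, and the remaining 34 had 500 or more. All symbols are those of the platform annotation, which can be old. Whether the dim probe sets named Rpl30, Rpl17 and Rpl19l4 match those genes was not tested.

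The spread between arrays was larger over the 6 dim genes than over the 34 brighter ones, with exceptions. The SD between arrays of a group had a median of 0.28 (log2) over the 34 and of 0.71 over the 6. It ran from 0.14 for Rpl31 to 0.86 for Rpl19l4. The dim Rpl3l had 0.38, less than the bright Rpl35a (0.57), Rps6 (0.47) and Rpl39 (0.47). In 34 of the 40 genes the highest and lowest of the 9 group means lay less than 1 log2 unit apart, with 0.24 for Rpl27a at the narrow end and 1.77 for Rpl30 at the wide end. Deviations from the group means ran together to a modest degree, with a median Pearson correlation of 0.17 over the 780 pairs of the 40 genes and of 0.00 over all genes, a description across 28 arrays that share their scaling. Rpl41, the shortest ribosomal protein, followed the mean of the other bright genes most (r = 0.81), and Rplp0 ran against it (r = -0.23).

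A pair of breast-fed arrays had lost many abundant probe sets. Breast-fed day 3 replicate 3 lacked 69 of 754 abundant probe sets and breast-fed day 4 replicate 2 lacked 48 of 757 (own signal more than 16-fold below the median of the other arrays), against 0 to 2 on the rest. None of the 50 abundant ribosomal protein probe sets was lost on any array (0 of 50). The dim genes Rpl30 and Rpl17 did read low on breast-fed day 3 replicate 3, at 3.5 and 12.5 where the median of the other arrays was 110.4 and 192, or 31.5-fold and 15.4-fold below. Without both arrays the number of ribosomal protein genes called was the same in each comparison below. Of 11 markers of ileal and small bowel epithelium 9 passed the filter, with mean signals from 36.7 to 7909. Of those particular to the ileum, Fabp6, the bile acid binding protein, had 970 and Slc10a2, the bile acid transporter, had 36.7, close to the filter of 24.0. Formula and hypoxia day 1 replicate 2 had the highest 3′ to 5′ ratio of beta-actin, a sign of RNA quality, at 4.17 against 0.97 to 2.42 on the other arrays.

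Together the 40 probe sets carried 6.58% to 9.58% of the summed normalised signal of an array. The share was 8.84% ± 0.90 (SD, n = 4) in unfed newborns. In breast-fed pups it was 8.07% ± 0.46, 7.82% ± 0.29, 7.93% ± 0.33 and 7.14% ± 0.50 on days 1 to 4 (SD, n = 3 each). Under formula and hypoxia it was 8.70% ± 0.56, 8.55% ± 0.34, 7.50% ± 0.49 and 7.73% ± 0.13. The shares were thus highest in unfed pups and in the first 2 days of formula and hypoxia, and lowest in breast-fed pups on day 4, with group ranges that overlapped between neighbours in this order. Breast-fed day 4 is also the group that lies wholly in the second series of accession numbers. On the deposited scale the spread was wider, for example 8.27% ± 2.51 in unfed pups and 9.69% ± 1.37 on day 1 of formula and hypoxia.

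**Figure D1:**
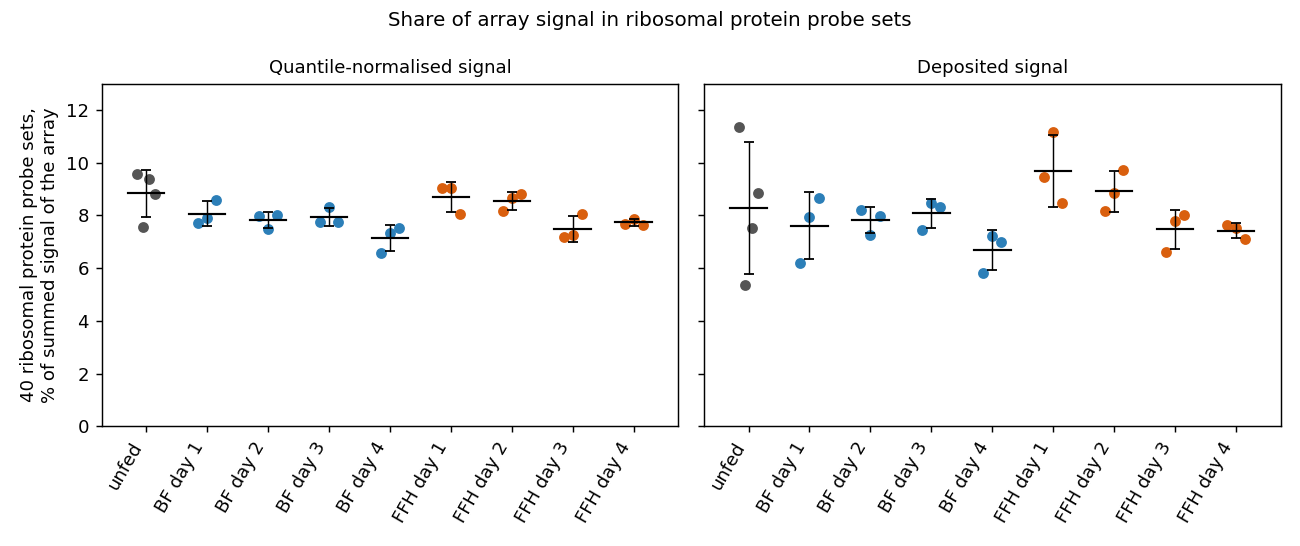
Share of the summed array signal (%, vertical axis) carried by the 40 ribosomal protein probe sets, by group, after quantile normalisation (left) and as deposited (right). Points are arrays, lines are group means and bars the SD; BF is breast-fed and FFH formula and hypoxia. On the left the means run from 7.14% (BF day 4) to 8.84% (unfed), and on the right the spread of the unfed and FFH day 1 arrays is wider.

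The question of the study was what formula feeding with hypoxia does to the newborn ileum. For the ribosomal proteins, no gene passed the test. Over the mean of days 1 to 4, 0 of 40 genes were called between formula and hypoxia and breast feeding at an adjusted p under 0.05 (limma, Benjamini-Hochberg over all 3185 genes), while 364 of all genes were called (11.4%). At an unadjusted p under 0.05 there were also 0 of the 40, against 852 of all genes. The changes ran from -0.26 to 0.29 (log2) with a median of 0.07, beside a median of 0.02 over all genes. Of the 40, 33 lay above 0, and 37 or 32 did so when the deposited scale or a common array median was used.

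How narrow the intervals were depended on the scaling. With quantile normalisation, in 34 of 40 genes (85%) the 95% confidence interval of the change lay within 1.5-fold in either direction, whereas this held for 1739 of all genes (54.6%). The median standard error was 0.14 for the ribosomal proteins and 0.16 for all genes. On the deposited scale and with a common median it held for 25 of 40 in each case (62.5%), and for 48.4% and 51.8% of all genes, with median standard errors of 0.18 and 0.22 for the ribosomal proteins. The 6 whose intervals reached further with quantile normalisation were the dim Rpl30, Rpl3l, Rpl17, Rpl19l4 and Rps24, and Rpl18.

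**Figure D2:**
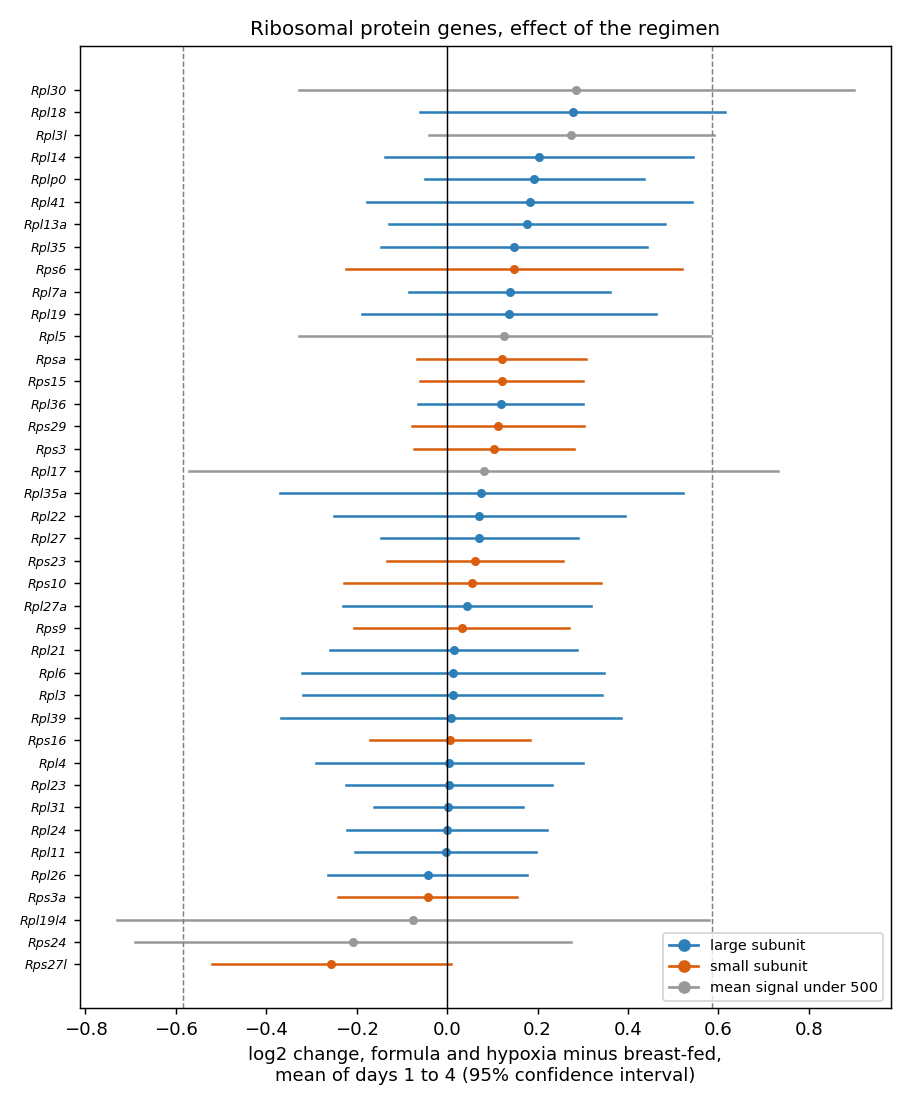
Change under formula and hypoxia against breast feeding as a mean of days 1 to 4 (log2, horizontal axis) for each of the 40 genes, with 95% confidence intervals as bars. Blue is the large subunit, orange the small subunit (paralogs by their name), grey a mean signal under 500, and the dashed lines mark 1.5-fold; values are quantile normalised. Every interval includes 0, and 34 of 40 lie between the dashed lines.

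The 3 lowest changes were those of Rps27l, Rps24 and Rpl19l4. Rps27l, by the symbol of the platform annotation a paralog of Rps27 that p53 can induce (whether the probe set tells it from Rps27 was not tested), gave breast-fed signals of 1489, 1836 and 1304 (day 1), 1802, 1382 and 1519 (day 2), 1339, 1836 and 1706 (day 3), and 1061, 1648 and 1377 (day 4). With formula and hypoxia it gave 1513, 1885 and 889 (day 1), 1202, 1509 and 1736.5 (day 2), 924, 838 and 1285 (day 3), and 1304, 1213.5 and 1272 (day 4). The regimens overlapped on each day except day 3, when all formula and hypoxia arrays were below the breast-fed ones. The change over the days was -0.26 (95% confidence interval -0.52 to 0.01, limma adjusted p = 0.203), the smallest p of the family. Rps24 had -0.21, and 0.01 without formula and hypoxia day 3 replicate 2, where its signal was 57.0 beside 356 and 423 on the other arrays of that group. Rpl19l4 had -0.08 with an interval of -0.73 to 0.58.

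The 3 highest changes were those of Rpl30, Rpl18 and Rpl3l. Rpl18 gave breast-fed signals of 1828, 2678 and 2961 (day 1), 2678, 2282.5 and 2109.9 (day 2), 2452, 3564 and 3614 (day 3), and 1752, 3388 and 2230.5 (day 4). The values under formula and hypoxia were 4009.7, 2887 and 3388, then 2508, 3089.8 and 3355, then 1781, 4322 and 3071, and last 3614, 3089.8 and 2943. The regimens overlapped on every day, and the change was 0.28 (-0.06 to 0.61, limma adjusted p = 0.288). Rpl30 had 0.29 (-0.33 to 0.90). This rested on breast-fed day 3 replicate 3, 1 of the arrays that had lost probe sets. Its signal there was 3.5, beside 100 and 109 on the other breast-fed arrays of day 3, and without it the change was 0.01. Rpl3l had 0.27 (-0.04 to 0.59).

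By day, too, 0 of 40 genes were called, with 0.283%, 1.48%, 2.01% and 1.98% of all genes called on days 1 to 4. At an unadjusted p under 0.05 there were 0, 0, 1 and 1 of the 40, and 291, 326, 528 and 478 of all genes. The median change of the 40 was 0.15, 0.13, -0.12 and 0.08 on the 4 days, with 31, 37, 12 and 28 genes above 0. On day 3, 2 of the 3 formula and hypoxia arrays had most genes below the breast-fed mean, but replicate 3 had 26 of 40 above it. Without replicate 2, which holds the lowest value of 13 genes over all arrays, the median of day 3 was -0.0040, and without replicate 1 it was -0.014.

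The sizes on the first 3 days and the sign of the median on day 4 depended on the scaling, and the median over all genes moved with it. On the deposited scale 40, 36, 7 and 20 genes lay above 0 on days 1 to 4, with medians of 0.71, 0.25, -0.21 and -0.0059. With a common median 39, 37, 3 and 20 lay above 0, with medians of 0.59, 0.26, -0.51 and -0.012. The medians over all genes were 0.17, -0.00061, 0.14 and -0.078 on the deposited scale. With a common median they were 0.068, 0.010, -0.14 and -0.080, and on day 4 with quantile normalisation 0.0073. On day 4 the median of the 40 thus lay above that of all genes under each scaling. On day 1 of the deposited scale 16 of the 40 had an unadjusted p under 0.05, against 315 of all genes, and with a common median 0 of the 40 and 276 of all genes had one (limma). On either scale 0 of 40 were called on day 1, and the smallest adjusted p was 0.437 and 0.675 (limma). Each side of day 1 holds an array unlike the rest. Breast-fed replicate 2 had a deposited trimmed mean of 109.2, and formula and hypoxia replicate 2 had a beta-actin 3′ to 5′ ratio of 4.17. The part of these arrays in the day 1 values was not tested.

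The groups of a day were also compared by overlap. On day 1, 2 genes had all formula and hypoxia arrays above all breast-fed ones (Rpl17 and Rps10; 7.54% of all genes did), and 0 had them all below (6.31%). On day 2 there were 7 above (Rpl13a, Rpl26, Rpl36, Rpl41, Rps10, Rps15 and Rpsa; 10.9%) and 0 below (10.5%). On day 3 there were 0 above (8.85%) and Rps27l was below (10.4%). On day 4 there were 2 above (Rps10 and Rps16; 8.7%) and 0 below (12.8%). Rps10, a small subunit protein, appeared on 3 of the 4 days, but the share of all genes that did so was not counted. Its change over the mean of days was 0.06, and it was called in no comparison of the regimens. Its signals on day 3 were 2985.5, 1071.5 and 3742 under formula and hypoxia and 2925, 3388 and 3929.7 in breast-fed pups, which overlap.

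The genes with an unadjusted p under 0.05 on a single day were Rps27l on day 3 and Rplp0 on day 4. Rps27l was at -0.69 on day 3 (-1.22 to -0.16, limma adjusted p = 0.176). Rplp0, the protein at the base of the stalk that recruits elongation factors, had 6579, 7974 and 8026 under formula and hypoxia on day 4 and 6791.5, 4975 and 4473 in breast-fed pups. The groups overlapped through breast-fed replicate 1. The change was 0.49 (0.01 to 0.97, limma adjusted p = 0.315), and over the mean of days it was 0.19 (-0.05 to 0.43, adjusted p = 0.304). The effect of the regimen on day 4 minus that on day 1 was called in 0 of 40 genes (0.157% of all genes; at an unadjusted p under 0.05, 0 of 40 and 225 of all genes, limma).

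**Figure D3:**
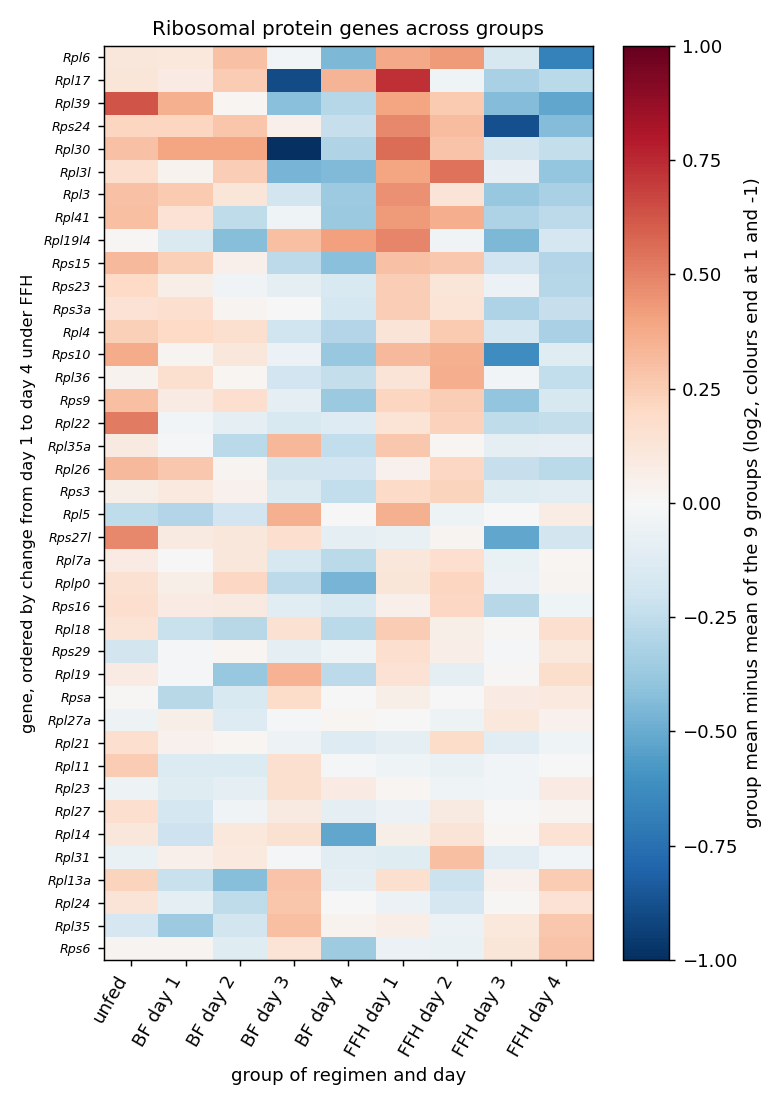
Mean of each group minus the mean of the 9 groups (log2, colour, red higher and blue lower; colours end at 1 and -1) for the 40 genes, ordered by their change from day 1 to day 4 under formula and hypoxia, Rpl6 at the top and Rps6 at the bottom. Days 3 and 4 of formula and hypoxia are mostly blue in the upper rows, and the dark blue cells of breast-fed day 3 are Rpl30 and Rpl17, which read 3.5 and 12.5 on 1 array of that group.

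Day 1 of either regimen was set against the unfed newborns. Breast-fed pups of day 1 had 0 of 40 genes called, as 0 of all genes were (0%), with 1 of the 40 and 186 of all genes at an unadjusted p under 0.05 (limma). That gene was Rpl11, which binds the 5S ribosomal RNA together with Rpl5. Rpl11 had 6323, 7306, 8966 and 9132 in the unfed pups and 6011, 6078 and 5861 in the breast-fed ones, which did not overlap, with a change of -0.39 (-0.76 to -0.02, adjusted p = 0.838). Formula and hypoxia of day 1 had 0 of 40 called (0.408% of all genes), with 1 of the 40 and 318 of all genes at an unadjusted p under 0.05. It was Rps27l at -0.55 (-1.05 to -0.06, adjusted p = 0.416). These comparisons share the unfed arrays. Their medians were -0.10 (breast-fed) and 0.05 (formula and hypoxia), and on the deposited scale and with a common median they were -0.22 and -0.27, and 0.41 and 0.25. The median of formula and hypoxia turned to -0.078 without unfed replicate 2 and to -0.24 within the first series of accession numbers, which holds 1 unfed array, while that of breast-fed pups was -0.0061 without unfed replicate 1.

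From day 1 to day 4 most of the 40 genes lay lower in both regimens (in breast-fed pups not on the deposited scale), and under formula and hypoxia 2 of them passed the test. All arrays of breast-fed day 4 are in the second series of accession numbers, while breast-fed day 1 and formula and hypoxia day 4 have arrays in both. The breast-fed course and the regimens on day 4 are thus partly mixed with the series. In breast-fed pups 0 of 40 were called (0.314% of all genes), with 4 of the 40 and 541 of all genes at an unadjusted p under 0.05 (limma). Those 4, Rps15, Rpl36, Rplp0 and Rpl26, all had negative values, and the median over the 40 was -0.23 beside 0.02 over all genes. Under formula and hypoxia 2 of 40 were called, both lower, while 13.4% of all genes were called and 6.78% were called lower. At an unadjusted p under 0.05 there were 8 of the 40 and 885 of all genes. The median was -0.29 beside -0.00 over all genes, and -0.09 over the 34 brighter genes alone.

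The number of genes on the lower side depended on the scaling. With quantile normalisation 13 of 40 lay above 0 from day 1 to day 4 of formula and hypoxia, and with the deposited scale or a common median 1 and 0 did, at medians of -0.55 and -0.75. In breast-fed pups 10 lay above 0 with quantile normalisation or a common median, but 21 on the deposited scale, where the median was 0.04 and that of all genes 0.32. Each side of that comparison holds an array with a deposited scaling unlike the rest. The trimmed mean was 109.2 on breast-fed day 1 replicate 2 and 209.2 on breast-fed day 4 replicate 1, against 150.2 to 150.5 elsewhere. The part of this in the count of 21 was not tested. Quantile normalisation gives each rank the same value on every array. A shift shared by the brightest probe sets is thus removed by construction.

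Rps15, the small subunit protein first isolated as rig from rat insulinoma, stood lower on day 4 in both regimens. Its signals were 7180.3, 5949.5, 6858.5 and 5699.8 in unfed pups. Breast-fed pups gave 6509.8, 5499 and 6048 (day 1), 4891.5, 5341 and 5611 (day 2), 3775, 4975 and 4074 (day 3), and 3584, 3742 and 4119.9 (day 4). Formula and hypoxia gave 6750.0, 6323 and 5737 (day 1), 6011, 6235 and 6191 (day 2), 4768, 3664.5 and 5107.5 (day 3), and 3479.5, 4473 and 4636 (day 4). In both regimens the arrays of days 3 and 4 lay below all arrays of day 1, and day 2 stayed nearer to day 1 under formula and hypoxia.

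Under formula and hypoxia Rps15 fell by 0.59 on the log2 scale from day 1 to day 4 (SE 0.17, 95% interval -0.95 to -0.23, limma adjusted p = 0.0268), which is 1.5-fold lower. In breast-fed pups the difference was -0.66 (-1.01 to -0.30) with an adjusted p of 0.104, so it did not pass. The difference between these courses was 0.07 (-0.44 to 0.58, adjusted p = 0.984). Rps15 was also the 1 gene of 40 called for any difference among the 9 groups (limma F test, adjusted p = 0.0041), where 23.8% of all genes were called and 9 of the 40 had an unadjusted p under 0.05 (1246 of all genes). The next were Rps10 (adjusted p = 0.0515), Rpl39 and Rpl3l (both 0.0645).

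Rpl6, a large subunit protein that binds ribosomal RNA, had the largest difference of the 40. Formula and hypoxia gave 5253, 3726 and 5534 (day 1), 5135, 4560.2 and 5079.5 (day 2), 5161, 1885 and 3633 (day 3), and 1313.5, 3264 and 2810.0 (day 4). All arrays of day 4 lay below all arrays of day 1, and 1 array of day 3 was lower than the other 2. Breast-fed pups gave 3244, 3799 and 4975 (day 1), 3978, 4269 and 5341 (day 2), 2985.5, 3584 and 4345 (day 3), and 3107, 2887 and 2134.5 (day 4), where again day 1 and day 4 did not overlap. Rpl6 fell by 1.05 under formula and hypoxia (SE 0.32, -1.72 to -0.39, limma adjusted p = 0.0324), which is 2.07-fold lower. The breast-fed difference was -0.56 (-1.23 to 0.11, adjusted p = 0.387), and the courses differed by -0.50 (-1.44 to 0.45).

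Both calls rested on few arrays. Without formula and hypoxia day 4 replicate 1, Rpl6 was at -0.65 (limma adjusted p = 0.254) and Rps15 at -0.46 (0.170). Without day 1 replicate 1 both missed the threshold (Rps15 0.0946, Rpl6 0.0992), as did Rps15 without day 1 replicate 2 (0.0636) and Rpl6 without day 1 replicate 3 (0.103). A count of 2 then became 0 or 1, and the direction stayed the same. On the deposited scale and with a common median the values were larger, at -1.02 and -1.23 for Rps15 and -1.40 and -1.61 for Rpl6, and both passed.

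**Figure D4:**
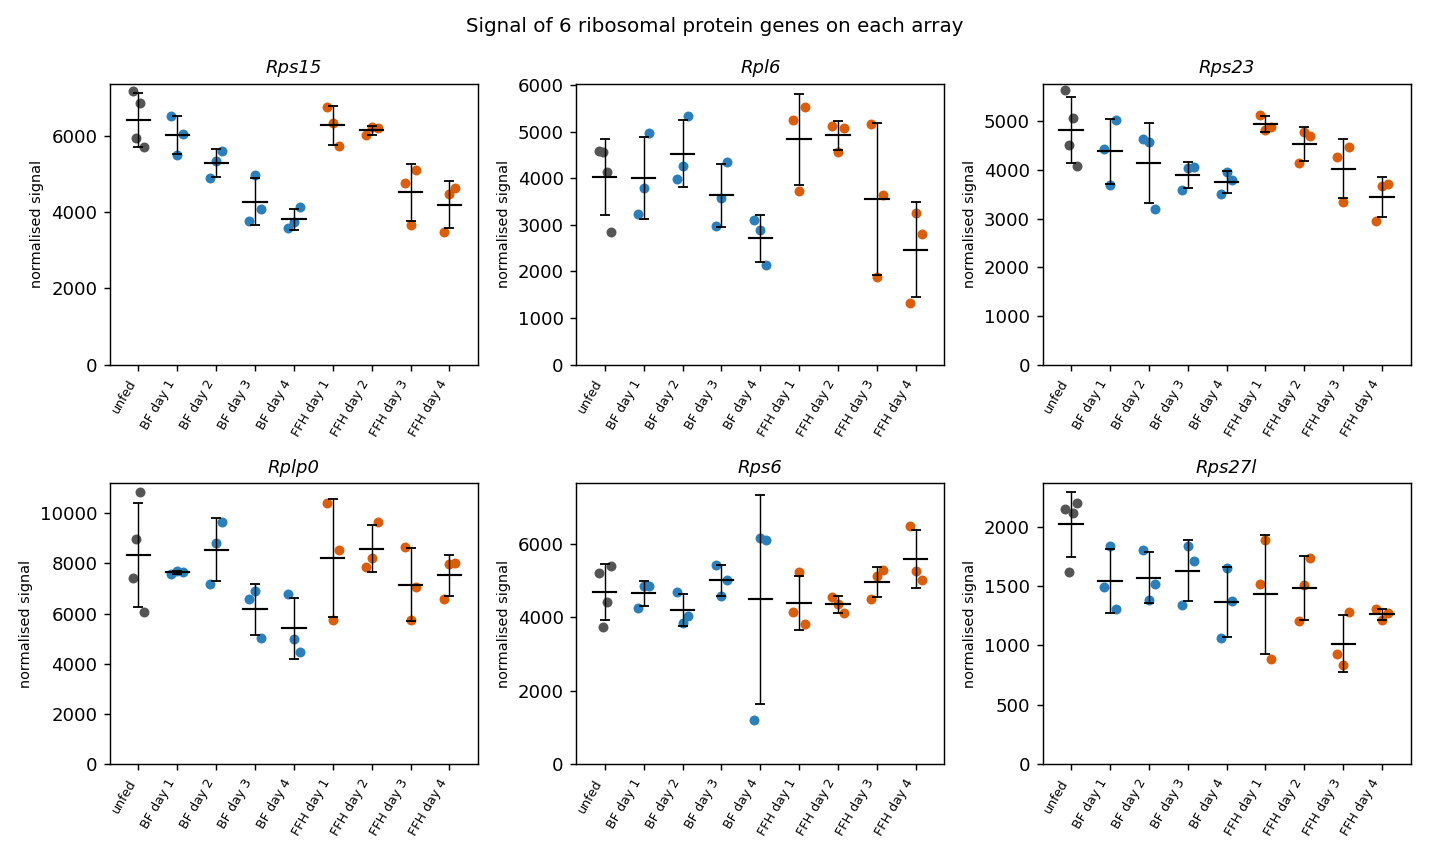
Normalised signal (linear, vertical axes start at 0) of Rps15, Rpl6, Rps23, Rplp0, Rps6 and Rps27l on each array, by group; points are arrays, lines group means and bars the SD. Rps15 runs from about the unfed level on day 1 to a mean of 3815 (BF day 4) and 4196 (FFH day 4), and 1 array of BF day 4 reads 1198 for Rps6.

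Several other genes came near the threshold from day 1 to day 4 of formula and hypoxia. Rps23, a protein of the decoding centre, had 5135, 4814 and 4891.5 on day 1 and 2961, 3664.5 and 3706 on day 4, which did not overlap. Its change was -0.53 (-0.92 to -0.14, limma adjusted p = 0.0619). Rpl3l stood at -0.79 (adjusted p = 0.0908), Rpl39, a short protein at the exit tunnel, at -0.92 (0.0964), Rps3a at -0.48 (0.0992) and Rpl3, which lies near the peptidyl transferase centre, at -0.78 (0.110). In 14 of 40 genes every array of day 4 lay below every array of day 1, as 17.1% of all genes did, and in 1 gene, Rpl24, every array lay above (16% of all genes).

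The courses of the regimens share no array and can be set side by side. From day 1 to day 4, 24 of 40 genes were below 0 in both (60%; 34.4% of all genes), 7 were above 0 in both and 9 had opposite signs. Across the 40 genes the Pearson correlation was 0.45, and across all genes 0.52, a description across genes that are not independent. By subunit, the median under formula and hypoxia was -0.09 over the 25 large subunit genes and -0.37 over the 11 small subunit genes, of which 1 each was called. In breast-fed pups these medians were -0.17 and -0.34. Under formula and hypoxia the median was -0.35 over the 19 genes with a TOP-like run and -0.11 over the 17 in which none was found. The 19 include the dim Rpl17 (-1.01), Rps24 (-0.91) and Rpl5 (-0.28), and the 17 include the dim Rpl3l (-0.79). The part of the dim genes in these medians was not tested. Rpl6, with the largest difference, is counted among the 17, but the 5′ end of its gene was not searched.

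**Figure D5:**
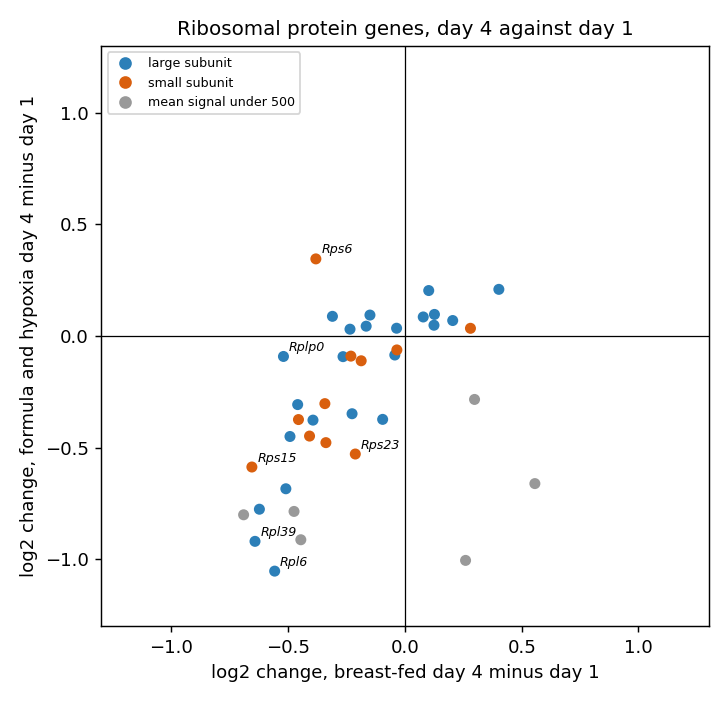
Change from day 1 to day 4 in breast-fed pups (horizontal axis) and under formula and hypoxia (vertical axis), both in log2, for each of the 40 genes; blue is the large subunit, orange the small subunit and grey a mean signal under 500. The lower left quadrant holds 24 genes, among them Rps15 and Rpl6, and Rps6 lies in the upper left.

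Members with a known role beyond the ribosome's core showed no call in any comparison of the regimens. Rps6, the substrate of S6 kinase, had 6478, 5253 and 5003 under formula and hypoxia on day 4 and 1198, 6148 and 6109.8 in breast-fed pups. Breast-fed replicate 1 was far below every other array for this gene, and without it the change over the days went from 0.15 (-0.22 to 0.52, limma adjusted p = 0.632) to -0.05. Rpsa, which also serves as a laminin receptor, had 6011, 6235 and 5477 under formula and hypoxia on day 4 and 5900.4, 5778 and 4950.1 in breast-fed pups, which overlap, and a change over the days of 0.12 (-0.07 to 0.31, adjusted p = 0.421). Rpl5 and Rpl11 form the 5S particle, which binds MDM2 when ribosome assembly is disturbed. Rpl11 was at -0.00 (-0.20 to 0.20), 0.16 on the deposited scale, and Rpl5 at 0.13 (-0.33 to 0.58) from a dim probe set.

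Other genes of protein synthesis were described from lists by role, with those measured counted in both comparisons. Of 9 elongation factor genes 4 were tested, and Eef2, the factor that moves the ribosome along, was higher over the days (0.58, limma adjusted p = 0.0338) and from day 1 to day 4 of formula and hypoxia (1.38, adjusted p = 0.0128). Eef1g was higher in the latter comparison too (1.12, adjusted p = 0.0230), while Eef1a1 was at -0.10 (adjusted p = 0.905). With arrays scaled to a common median Eef2 was at 0.48 and 0.92 and Eef1g at 0.87, in the same direction but past no threshold (adjusted p = 0.108, 0.115 and 0.183). On the deposited scale the calls from day 1 to day 4 were missed too (0.0507 for Eef2, 0.0581 for Eef1g). Of 8 tested among 21 other genes with a TOP element, a list that holds those factors, 1 was higher and 1 lower over the days, and 2 were higher and 2 lower from day 1 to day 4. The lower ones were Hnrnpa1 (-0.61, and -1.24 from day 1 to day 4) and Naca (-1.27), of the nascent chain complex at the ribosome. Rack1, a scaffold on the small subunit, was at 0.16 (adjusted p = 0.394) and -0.56 (adjusted p = 0.0954).

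Of 43 initiation factor genes 17 were tested. Eif4ebp1, the repressor of cap-dependent initiation that mTOR switches off, was higher over the days (0.61, limma adjusted p = 0.0159). It was the 1 call there, and from day 1 to day 4 of formula and hypoxia 1 was higher (Eif2b4, 0.80) and 2 lower (Eif3m, -1.58, and Eif2s3, -1.20). Of 25 genes of S6 kinase and mTOR signalling 11 were tested: Eif4ebp1 was higher and Rraga, which tells mTOR of amino acids, lower (-0.56, adjusted p = 0.0469) over the days, and Tsc2 was higher from day 1 to day 4 (0.95, adjusted p = 0.0252). Rps6kb1, the S6 kinase gene, was at -0.14 (adjusted p = 0.495). Of 37 genes of ribosome assembly 10 were tested, with 0 called over the days and 1 higher from day 1 to day 4 (Mybbp1a, 1.16). Of 24 genes of nascent chain handling 10 were tested, with Sec62 lower over the days (-0.73) and Naca and Dad1 (-0.78) lower from day 1 to day 4. On the deposited scale Eif4ebp1 (limma adjusted p = 0.0555), Rraga (0.0600), Eif3m (0.0733) and Eif2s3 (0.108) missed the threshold in the same direction, as did Eif4ebp1 (0.0728) and Eif2b4 (0.103) with a common median. Of 40 aminoacyl-tRNA synthetase genes 5 were tested and 0 called in either comparison.

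The mitochondrial ribosome is built from other genes, of which 4 of 44 were tested. Mrps14 was lower over the days (-0.80, limma adjusted p = 0.00231). From day 1 to day 4 of formula and hypoxia 3 of the 4 were lower, Mrps14 (-1.3), Mrpl23 (-0.86) and Mrpl3 (-0.84), of which Mrpl23 (limma adjusted p = 0.0516) and Mrpl3 (0.0783) missed the threshold on the deposited scale. With 4 genes measured this describes them and not the mitochondrial ribosome.

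Markers of cell types moved in the same comparisons. Over the days, 4 of 6 leukocyte, 3 of 6 fibroblast, 3 of 8 proliferation, 2 of 4 goblet and Paneth cell and 3 of 3 mast cell markers were called lower, 3 of 3 red cell and 1 of 3 pancreas markers higher, 1 of 3 liver markers lower, and 0 of 9 epithelial markers. From day 1 to day 4 of formula and hypoxia 4 of 6 smooth muscle markers were higher, with summed signals of 5046 to 7317 on day 1 and 10493 to 14034 on day 4. In other lists 1 gene each was called. Higher were Muc2 of goblet cells (2.61), Mcm6 of dividing cells (0.90) and Apoa1 of the epithelium (0.95). Lower were Alas2 of red cells (-1.12), Lum of fibroblasts (-1.41), Mcpt1 of mast cells (-1.82), Pnlip of the pancreas (-0.98) and Ttr of the liver (-0.85). The medians of these lists, in the same order, were 0.03, 0.25, 0.66, -0.46, -0.02, -0.47, -0.63 and -0.85. In the goblet and Paneth, proliferation, epithelial and fibroblast lists some genes changed in the opposite direction to the called one. A single called gene thus does not stand for its cell type. The summed signal of 8 proliferation markers was 2353 to 2952 on day 1 and 2513 to 2895 on day 4. The part of these shifts in the values of Rps15 and Rpl6 was not tested.

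A second probe set was at hand for 16 of the 40 genes and did not always bear out the first. The other probe set of Rpl6 gave -0.36 from day 1 to day 4 of formula and hypoxia, in place of -1.05, and ran with the first across the 28 arrays (r = 0.77). The others of Rps15 gave -0.94 and 0.30, in place of -0.59, with correlations of 0.06 and -0.61 with the one used. For Rpl3 the second gave -0.10 in place of -0.78. The 3 others of Rpl21 gave -0.44, -0.67 and -1 where the one used gave 0.04, and the other of Rps6 gave -0.27 where the one used gave 0.35 (r = 0.90 between them). The call of Rps15 from day 1 to day 4 of formula and hypoxia thus belongs to 1 of its 3 probe sets. With each probe set tested on its own, a second one of Rps15 was called among the 9 groups (limma F test, adjusted p = 0.0281). That one is the probe set at 0.30, which ran against the one used (r = -0.61), so its call does not bear out the fall.

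A further 31 probe sets of the family carry several ribosomal protein symbols, since near-identical copies of these genes share their sequence, and 30 of them were tested as an added comparison. Over the days 0 of 30 were called (11% of 4561 probe sets), with a median of 0.11. From day 1 to day 4 of formula and hypoxia 1 of 30 was called (11.2% of all), the probe set rc_AI177054_at, named for Rpl27al3 and Rpl27a. It fell by 1.24 (-1.87 to -0.60, limma adjusted p = 0.0129), whereas the probe set with the symbol Rpl27a alone was at 0.04 (-0.51 to 0.58).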

How the data were processed

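The authors deposited 1 linear intensity per probe set and array. Software and summary method: not given in the sources used here. The trimmed mean was about equal on all arrays but 2, breast-fed day 1 replicate 2 (109.2) and breast-fed day 4 replicate 1 (209.2). Genes were named through the platform annotation, which can be old. Intensities of 8799 probe sets (59 controls) were quantile normalised over 28 arrays, 8 was added and log2 taken. Probe sets with a mean above the 40th percentile (a signal of 24.0) were kept, and the one with the highest mean stood for each gene, which left 3185 genes. A model with 1 mean per group (19 residual degrees of freedom) was fitted with limma 3.58.1 in R 4.3.3, with an intensity trend, 95% confidence intervals, two-sided tests and Benjamini-Hochberg adjustment over all genes tested, with calls at an adjusted p under 0.05. The fit was tested on simulated data. No test was run on a gene list. A TOP-like run was searched in RefSeq promoters of GRCr8.

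The members and lists were chosen with earlier results of these data known. Named genes were all calls, the 3 highest and 3 lowest changes over the days and levels, members by role, and members whose probe sets disagreed most; near misses and genes outside the family called from day 1 to day 4 were added after their values were seen. Replicate numbers were taken from the labels. They did not pair samples, since the pups were separate and deviations of same-numbered arrays correlated between -0.13 and 0.09. Alternatives were the deposited scale, a common array median, other pseudocounts (2 and 32), no filter or the 60th percentile, each probe set, array weights, the series of accession numbers (19 and 9 arrays) as a term or alone, a replicate block and leaving out arrays. Each group has 3 or 4 arrays, and that number limits the precision.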

Additional observations from a re-analysis of the deposited data

Results flagged for a closer look

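Rps27l in the unfed newborns had 1 array apart from the other 3. Replicate 2 read a signal of 1615.6 (1616), while the others read 2144, 2109.9 and 2199, which leaves a gap of 0.866 of the range of the group on the log2(signal + 8) scale, above Dixon's critical value for 4 samples. The 40 genes, their median and their share of the summed signal were checked in this group, 42 values in all, and this was the 1 found. Chance gives about 1 in 20 of the values checked, so 1 among 42 is no more than chance would give.

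The probe set named for Rpl27al3 and Rpl27a, which carries several symbols and so took no part in the main comparisons, stood at -1.24 (log2) from day 1 to day 4 of formula and hypoxia. It is given because it showed a change outside the probe sets used.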

How the results depend on the processing

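The 0 calls of the regimen, over the days, on each day and for day 4 minus day 1, held under every alternative run. Breast-fed day 1 against unfed pups gave 1 call with array weights (Rpl22), and breast-fed day 4 against day 1 gave 1 (Rps15). From day 1 to day 4 of formula and hypoxia the 2 calls became 4 on the deposited scale (Rps15, Rpl6, Rps3a, Rpl3), 4 with array weights (Rps15, Rpl6, Rps24, Rps23), 0 without a filter and 0 without formula and hypoxia day 1 replicate 2 and day 4 replicate 1 together; leaving out single arrays gave 0 to 3. For any difference among the 9 groups the 1 call became 0 on the deposited scale, 0 with a common median, 0 within the second accession series, Rpl26 in place of Rps15 within the first, 2 with a pseudocount of 32, 2 with the 60th percentile, 3 by probe set and 11 with array weights, and 1 to 5 without single arrays. With a replicate block, although the numbers do not pair the pups, the F test gave 3 calls (Rps15, Rpl3l, Rpl3), day 1 to day 4 of formula and hypoxia gave 3 (Rps15, Rpl6, Rpl3) and the regimen gave 0. Counts under the alternatives are given here without the share of all genes called under the same setting. A higher count therefore does not show that the family moved more than other genes. Over the days, the change of Rpl30 was -0.14 with the accession series as a term, that of Rps6 -0.0044 within the first series (days 1 to 3), and that of Rpl11 0.16 (deposited), 0.060 (common median) and 0.036 (series as a term). Leaving out single arrays gave -0.058 to 0.047 for Rpl11, -0.28 to 0.070 for Rpl19l4, -0.33 to 0.0098 for Rps24 and -0.048 to 0.25 for Rps6, which crosses 0 in each. The cause was not tested. Rps24, Rpl30, Rpl17, Rpl19l4, Rpl5 and Rpl3l are limited by signals nearer to the background. The second accession series could be used alone for the F test, the regimen on day 4 and both breast-fed comparisons over time, since it lacks the other groups. It holds 1 array each of breast-fed day 1 and formula and hypoxia day 4, assumed to vary like the others, so a count of 0 there says little.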
